A study of Mus musculus with 8 samples.

Results

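MKRN1 is a RING-type E3 ubiquitin ligase, an enzyme that attaches ubiquitin to chosen proteins and so marks many of them for the proteasome. Proteins reported as its targets include the tumour suppressor p53 and its effector p21, the death receptor adaptor FADD, the nuclear receptor PPARG, the catalytic alpha subunits of AMPK, the WNT pathway scaffold APC and TERT, the reverse transcriptase of telomerase. They were listed here by what has been reported of the proteins, as the 8 genes Trp53, Cdkn1a, Fadd, Pparg, Prkaa1, Prkaa2, Apc and Tert. Of these 8, 6 had a probe set assigned to that symbol alone, among 19937 genes with such a probe set. The probe set of Cdkn1a is assigned to a further gene as well and was not used, and Trp53 is not analysed here. Each of the 6 had 1 usable probe set. Ubiquitination acts on protein, whereas the arrays measured RNA, so the comparison asks whether the transcripts of reported substrates, and of the pathways they serve, differ when Mkrn1 RNA is lowered.

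The cells were R1 mouse embryonic stem cells, a male line of 129X1 x 129S1 background, kept on gelatin with LIF and 15% serum. The 4 control arrays (shGFP 1, 3, 5 and 7) came from cells given 2 µg of pLKO.1 plasmid with a hairpin against GFP, and the 4 knockdown arrays (shMKRN1 2, 4, 6 and 8) from cells given the same plasmid with a hairpin against MKRN1. Both groups went through transient transfection and 4 days of puromycin, and were lysed 6 days after transfection, so the controls share plasmid, lipid and drug with the knockdown. The knockdown rests on 1 hairpin sequence in a transfected population, not a clone, and nothing in the labels ties an array to its own transfection, which leaves the p-values as a measure of the spread between these arrays only.

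The hairpin is shown because it is the only difference between the groups that the labels name. Where it lies in the Mkrn1 transcript was not examined. It is written 5′ to 3′ as DNA, as the labels give it.
shMKRN1: gcgagatgttgcttatgcttt

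The log2 medians of the arrays ranged from 7.14 to 7.24. The first principal component, with 37.6% of the variance, put shGFP 7 at 23.2 and the other controls between -3.45 and 6.20, and it put shMKRN1 8 at 7.46 and the other knockdown arrays between -15.2 and -6.02. Probe sets of 1194 olfactory and vomeronasal receptor genes, which stem cells keep silent, gave a scale for absent transcripts: 95% of them lay below 6.50, the limit named below as the silent limit. All 14 pluripotency markers lay above that level, with list means from 11.27 to 11.37 in shGFP and from 11.29 to 11.39 in shMKRN1. Of 16 fibroblast markers 11 lay above it, with Lum, Postn, Prrx1, Fap and S100a4 below, and list means ran from 7.23 to 7.36 in shGFP and from 7.24 to 7.41 in shMKRN1. Fbxo15 and Nanog of the first list and Pdgfrb and Col1a1 of the second were past the test and higher in shMKRN1. Without 1 array the first list held no called gene in 4 of the 8 fits and the second in 7 of the 8, and none of these 4 genes passed with every probe set tested (adjusted p from 0.0574 for Nanog to 0.106 for Col1a1). The part of either cell state in the values below was not tested, and in bulk RNA fewer cells of a kind and less RNA per cell cannot be told apart.

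Mkrn1 itself read 10.45, 10.45, 10.51 and 10.34 on shGFP 1, 3, 5 and 7, and 9.81, 9.81, 9.86 and 9.88 on shMKRN1 2, 4, 6 and 8. The groups did not overlap, with a gap of 0.46 between the lowest control and the highest knockdown array. The knockdown left 66.2% of the control RNA (95% confidence interval 61.0% to 71.7%), so the substrate transcripts were read in cells with a partial loss of Mkrn1 RNA.

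None of the 6 substrate transcripts passed the test (limma, adjusted p from 0.232 for Fadd to 0.973 for Tert). Across all genes 4.49% passed, 3.66% higher and 0.838% lower in shMKRN1. At an unadjusted p under 0.05, 1 of the 6 (Fadd) was counted, against 19.5% of all genes. Of all genes 13.7% were higher and 5.78% lower in shMKRN1 at that level, the shares beside which the counts by direction of the pathway lists stand. Counts of pathway genes past the test stand beside the 3.66% and 0.838%. The mean of each was lower in shMKRN1 than in shGFP, a direction found in 47.2% of all genes, but the 6 were read on the same 8 arrays and the differences were small, from -0.0056 for Tert to -0.17 for Pparg. Their median was -0.071, beside 0.0077 over all genes. None of the 17 alternative fits brought any of the 6 past the threshold.

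**Figure D1:**
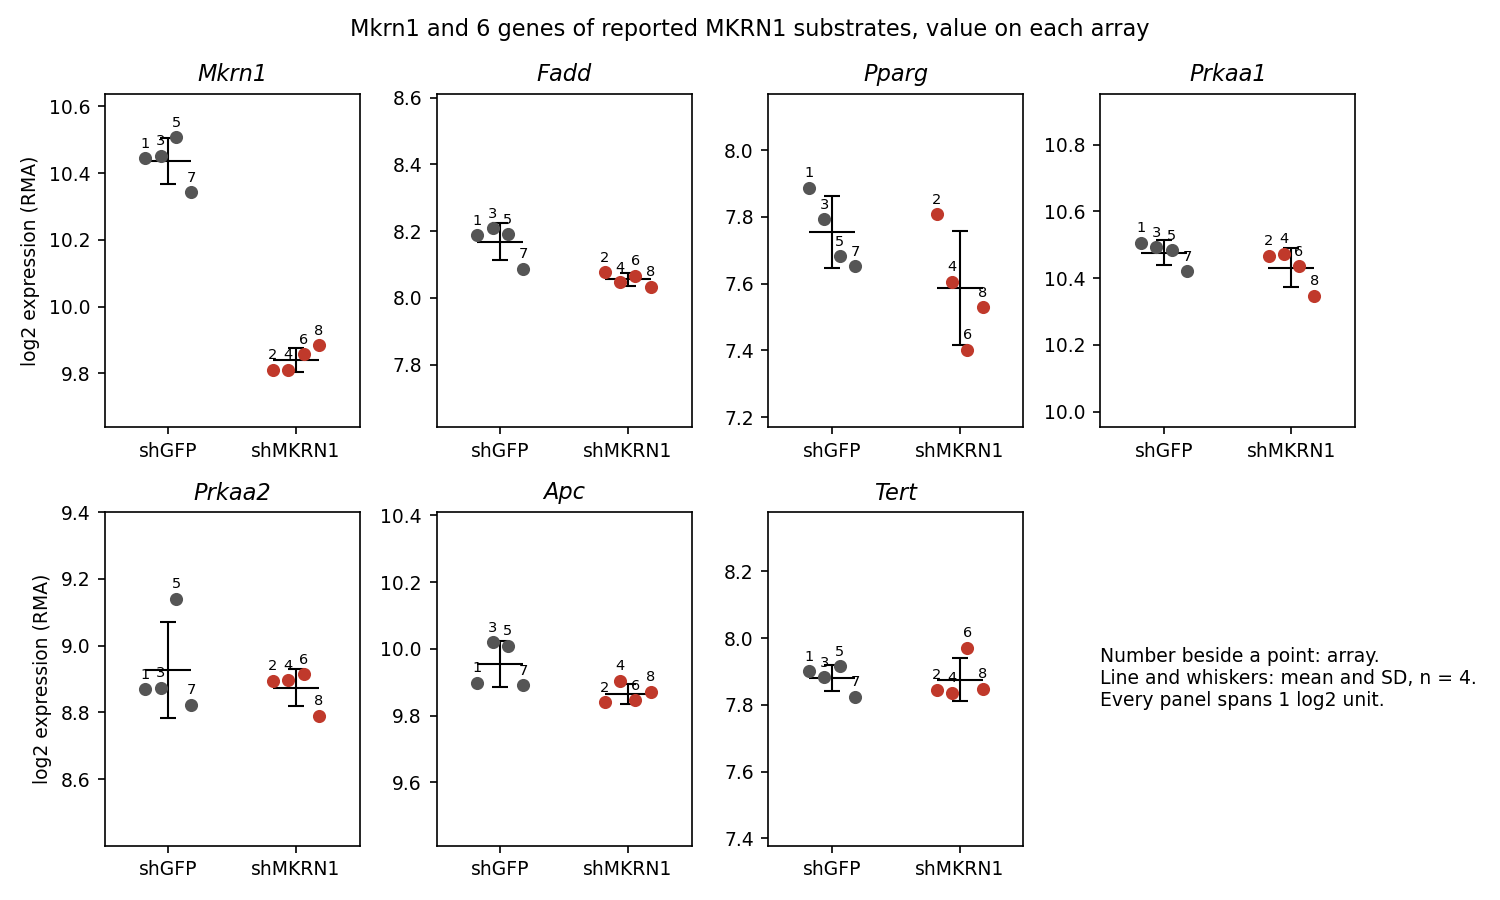
Log2 expression (vertical axis, RMA values, every panel 1 log2 unit high) of Mkrn1 and of the 6 substrate genes on the 4 shGFP arrays (grey) and the 4 shMKRN1 arrays (red). Points are arrays with their number, and line and whiskers are mean and SD. Mkrn1 falls from 10.44 to 9.84, whereas the other panels show groups that overlap or, for Fadd, stand 0.010 apart.

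**Figure D2:**
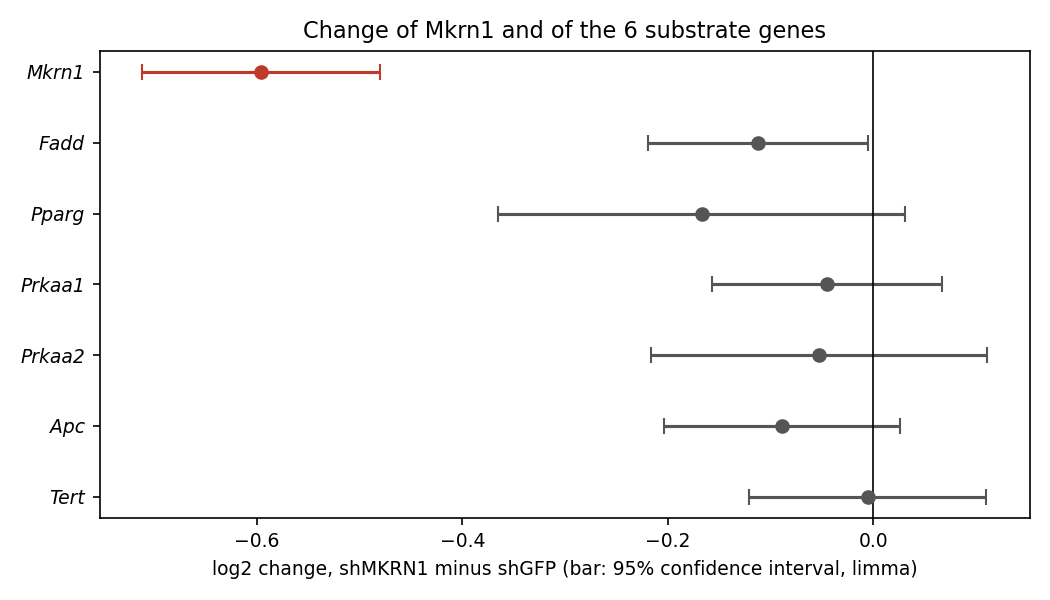
Log2 change, shMKRN1 minus shGFP (horizontal axis), of Mkrn1 and the 6 substrate genes; points are limma estimates from 4 arrays per group and bars their 95% confidence intervals. Red marks an adjusted p under 0.05. Only the interval of Mkrn1, from -0.71 to -0.48, lies away from the rest, and that of Fadd ends at -0.0053.

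FADD couples activated death receptors such as FAS to caspase-8 and so starts the extrinsic route to apoptosis. Fadd (Entrez gene 14082) read 8.19, 8.21, 8.19 and 8.09 on shGFP 1, 3, 5 and 7, and 8.08, 8.05, 8.07 and 8.03 on shMKRN1 2, 4, 6 and 8. Every knockdown array lay below every control array, but shGFP 7 lay only 0.010 above shMKRN1 2, while the other 3 controls lay close together. Groups that did not overlap, with shMKRN1 lower, were found for 3.51% of all genes. The share of all genes without overlap and with shMKRN1 higher was not counted, so none stands beside the genes of that kind named below. The means were 8.17 ± 0.055 and 8.06 ± 0.020 (SD, n = 4 each), and the exact permutation test gave p = 0.0286, the lowest that 70 assignments allow. The change of -0.11 (SE 0.048; limma adjusted p = 0.232) corresponds to 92.5% of the control level, with an interval of 85.9% to 99.6%. Without shGFP 7 the change was -0.14 (limma adjusted p = 0.129), so the difference did not pass the threshold in that fit either.

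Of 18 measured genes of the death receptor pathway around FADD, 1 rose and none fell. This was Mlkl, the pore-forming effector of necroptosis, which read 6.09, 6.34, 6.29 and 6.21 on shGFP 1, 3, 5 and 7 and 6.49, 6.70, 6.61 and 6.42 on shMKRN1 2, 4, 6 and 8. All controls and 2 of the knockdown arrays were below the silent limit, so the step of 0.33 (SE 0.076; limma adjusted p = 0.0421) starts where presence of the transcript could not be told. Its call held in 1 of the 8 fits without 1 array, that without shMKRN1 8, and the adjusted p reached 0.129. The list had a median change of 0.022, close to 0.0077 for all genes. At an unadjusted p under 0.05, 4 of the 18 were higher and none lower, beside the 13.7% and 5.78% of all genes.

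p53 is a transcription factor switched on by DNA damage and other stress, and p21, encoded by Cdkn1a, is the inhibitor of cyclin-dependent kinases through which it halts the cell cycle. With neither transcript usable here, what could be read were the genes around them. None of 20 p53 regulators passed the test, and 4 had an unadjusted p under 0.05, 2 in each direction. The smallest p was that of the acetyltransferase gene Ep300, with a log2 level of 11.73 in the controls and 11.56 in the knockdown (adjusted p = 0.0819). The kinase gene Hipk2 had a difference of 0.16 (adjusted p = 0.107) and Atr, a kinase of the replication stress response, one of 0.24 (adjusted p = 0.150). The list's median change was -0.0016. With array weights 2 of the regulators were called, beside 2757 of all 19937 genes in that fit. Among genes above the median level 2 were called as well, beside 1595 of 9968 genes.

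Among 28 measured direct p53 targets other than Cdkn1a, 1 rose and none fell, with a median change of 0.025. Ephx1, an epoxide hydrolase gene that also belongs to the response to oxidants, read between 7.57 and 7.93 in shGFP and between 8.11 and 8.41 in shMKRN1, with no overlap. It rose by 0.47 (SE 0.092; limma adjusted p = 0.0220), and its call was lost without shGFP 3, shMKRN1 4 or shMKRN1 6 (adjusted p up to 0.0761). At an unadjusted p under 0.05, 7 of the 28 were higher and 1 was lower, again beside 13.7% and 5.78% of all genes. Over the 17 alternatives the list held between 0 and 6 called genes, with 6 under array weights, beside 2757 of 19937 genes. The list of p21 partners and other genes of G1 and S phase, with cyclins, cyclin-dependent kinases and their inhibitors, held no called gene among 23. In it 2 were higher and 3 lower at an unadjusted p under 0.05. Of the 23 the cyclin gene Ccnd3 had the smallest p, with a difference of 0.22 (adjusted p = 0.0954). The kinase inhibitor gene Cdkn2d had a difference of 0.15 (0.166) and the cyclin gene Ccne1 one of -0.11 (0.186). This list held 2 called genes with array weights and with a trended robust variance, beside 2757 and 1549 of 19937 genes. Cdkn2a, which encodes ARF, an inhibitor of MDM2 and itself a reported MKRN1 target, lay at 7.50 in shGFP and 7.59 in shMKRN1 (adjusted p = 0.408).

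PPARG is a ligand-activated receptor that drives fat cell differentiation and lipid storage together with an RXR partner. Pparg (Entrez gene 19016) read 7.89, 7.79, 7.68 and 7.65 on shGFP 1, 3, 5 and 7, and 7.81, 7.61, 7.40 and 7.53 on shMKRN1 2, 4, 6 and 8. The groups overlapped, since shMKRN1 2 lay above 3 of the 4 controls, and Pparg had the widest spread of the 6 within the knockdown group, 0.41 from lowest to highest. The means were 7.75 ± 0.11 and 7.59 ± 0.17 (SD, n = 4 each; exact permutation p = 0.171). Its change of -0.17 had the largest error of the 6 (SE 0.089; limma adjusted p = 0.347), and the interval ran from 77.6% to 102% of the control level. The estimate was -0.24 without shMKRN1 2 and -0.11 without shMKRN1 6.

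No gene among 16 measured PPAR family members, partners and corepressors passed the test. The receptor partner gene Rxra had a difference of 0.17 (limma adjusted p = 0.122), the coactivator gene Ncoa2 one of 0.14 (0.134) and Ppargc1a, a coactivator gene below the silent limit, one of -0.20 (0.171). Of the 16, 3 were higher and 1 was lower at an unadjusted p under 0.05, and the median change was 0.054. Among genes above the median level, 2 of this list were called, beside 1595 of 9968 genes in that fit. Of 18 measured PPARG target genes 1 rose, none fell and the median change was 0.0036, with between 1 and 3 called over the 17 alternatives. With an unadjusted p under 0.05, 5 of the 18 were higher and none lower, beside 13.7% and 5.78% of all genes. Plin2, which encodes a coat protein of lipid droplets, read 9.41, 9.20, 9.21 and 8.88 on shGFP 1, 3, 5 and 7 and 9.97, 9.91, 9.84 and 9.61 on shMKRN1 2, 4, 6 and 8. Its groups did not overlap, and array 7 was the lowest control and array 8 the lowest knockdown array. The rise of 0.66 (SE 0.11; limma adjusted p = 0.0131) passed in each of the 8 fits without 1 array, with an adjusted p of at most 0.0488. Angptl4, a secreted inhibitor of lipoprotein lipase, lay at 8.19 in the controls and 8.37 in the knockdown without overlap and did not pass (adjusted p = 0.0557). Of the 18 targets 13 had a mean above the silent limit, and the others, among them Fabp4, Cd36 and Adipoq of mature fat cells, could not be told from silent genes.

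AMPK is a kinase of low energy state built from a catalytic alpha, a scaffolding beta and a nucleotide-binding gamma subunit, and it restrains fatty acid synthesis and mTORC1 while promoting autophagy. Prkaa1 (Entrez gene 105787), encoding the alpha subunit found in most tissues, read 10.51, 10.49, 10.48 and 10.42 on shGFP 1, 3, 5 and 7, and 10.47, 10.47, 10.44 and 10.35 on shMKRN1 2, 4, 6 and 8. The groups overlapped, and shGFP 7 and shMKRN1 8 were the lowest of their groups. The means were 10.48 ± 0.038 and 10.43 ± 0.058 (SD, n = 4 each; exact permutation p = 0.229), a change of -0.045 (SE 0.050; limma adjusted p = 0.699). The interval ran from 89.7% to 105% of the control level.

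Prkaa2 (Entrez gene 108079) encodes the other alpha subunit, known best from muscle. It read 8.87, 8.87, 9.14 and 8.82 on shGFP 1, 3, 5 and 7, and 8.90, 8.90, 8.91 and 8.79 on shMKRN1 2, 4, 6 and 8. Apart from shGFP 5, which stood 0.27 above the next control, the ranges of the groups overlapped. The change of -0.053 (SE 0.074; limma adjusted p = 0.765; exact permutation p = 0.714, n = 4 each) rested on that array: without shGFP 5 it was 0.018 (adjusted p = 0.881). The interval with all arrays ran from 86.0% to 108% of the control level.

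Of the 5 genes for beta and gamma subunits, 1 passed the test and was higher in shMKRN1, against 3.66% of all genes. Prkag1, the gene of the gamma subunit found in most tissues, read 10.82, 10.75, 10.83 and 10.84 on shGFP 1, 3, 5 and 7, and 10.99, 11.09, 11.05 and 10.97 on shMKRN1 2, 4, 6 and 8. Every knockdown array lay above every control, and the rise was 0.21 (SE 0.050; limma adjusted p = 0.0428). The call lay close to the threshold, and held in 1 of the 8 fits without 1 array, that without shMKRN1 8 (adjusted p up to 0.137). The beta subunit gene Prkab1 also had groups without overlap, at means of 9.55 and 9.64, and did not pass (adjusted p = 0.328), nor did Prkag2 (0.509). The alpha subunits and Prkag1 were not tested against each other.

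Upstream of AMPK stand the kinases LKB1, CAMKK2 and MAP3K7, the STRAD and MO25 partners of LKB1, and the folliculin complex. Of 10 measured genes of this group 1 rose and none fell, beside 3.66% and 0.838% of all genes, with a median change of 0.14. A lower mean in shMKRN1 was found for 1 of the 10 and for 47.2% of all genes. Those with an unadjusted p under 0.05 were 4 higher and none lower, beside 13.7% and 5.78% of all genes. Cab39l, which encodes an MO25 scaffold, read 8.79, 8.77, 8.88 and 8.70 in the controls and 9.06, 9.16, 9.21 and 8.96 in the knockdown arrays, in array order. These groups did not overlap, and Cab39l rose by 0.31 (SE 0.067; limma adjusted p = 0.0305). Its call held without shGFP 5 or shMKRN1 8 and was lost without each of the other 6 arrays (adjusted p up to 0.102). With array weights 4 of the 10 were called, beside 2757 of 19937 genes. The folliculin partner gene Fnip2 had a difference of 0.14 (adjusted p = 0.126) and Flcn, for folliculin itself, one of 0.19 (adjusted p = 0.146).

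Among genes listed here as encoding protein targets of AMPK, 4 of 19 rose and none fell, beside 3.66% and 0.838% of all genes. Their median change was 0.029. The count at an unadjusted p under 0.05 was 6 higher and none lower, beside 13.7% and 5.78% of all genes. The 4 past the test were Acacb, an acetyl-CoA carboxylase whose product malonyl-CoA limits fat oxidation (0.25, SE 0.055), Gys1, muscle-type glycogen synthase (0.23, SE 0.052), Mlycd, which degrades malonyl-CoA (0.22, SE 0.053), and the autophagy gene Becn1 (0.19, SE 0.045). Their limma adjusted p-values lay between 0.0336 and 0.0477. Without 1 array the list held between 0 and 2 called genes and none in 7 of the 8 fits, and Acacb and Mlycd were the 2 kept without shGFP 7. Without both shGFP 7 and shMKRN1 8 the list held 1.

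APC is the scaffold of the complex that phosphorylates beta-catenin for destruction while WNT is absent. Apc (Entrez gene 11789) read 9.90, 10.02, 10.01 and 9.89 on shGFP 1, 3, 5 and 7, and 9.84, 9.91, 9.85 and 9.87 on shMKRN1 2, 4, 6 and 8. The groups overlapped: shGFP 1 and shGFP 7 lay between shMKRN1 8 and shMKRN1 4, while shGFP 3 and shGFP 5 lay above every knockdown array. The means were 9.96 ± 0.070 and 9.87 ± 0.030 (SD, n = 4 each; exact permutation p = 0.0857). The change of -0.089 (SE 0.052; limma adjusted p = 0.393) had an interval of 86.8% to 102% of the control level.

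Of 18 genes of the destruction complex and its regulators, 2 rose and none fell, beside 3.66% and 0.838% of all genes, and the median change was -0.017. With an unadjusted p under 0.05, 3 of the 18 were higher and none lower, beside 13.7% and 5.78% of all genes. Csnk1e, a casein kinase that acts on Dishevelled, rose from 10.51 to 10.78 (0.26, SE 0.055; limma adjusted p = 0.0277), and was called without shGFP 1, 5 or 7 but not without any of the other 5 arrays (up to 0.0867). Tnks, the tankyrase that marks axin for degradation, rose from 9.98 to 10.19 (0.22, SE 0.052; adjusted p = 0.0467), and was called in none of the 8 fits without 1 array (up to 0.131). Ctnnb1, the gene of beta-catenin, had a mean of 12.42 in the controls and 12.53 in the knockdown and did not pass (adjusted p = 0.245). Without 1 array the list held 0 or 1 called gene, and none in 5 of the 8 fits.

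Of 21 measured direct WNT target genes 2 rose and 1 fell, beside 3.66% and 0.838% of all genes, and the median change was 0.14. Counted at an unadjusted p under 0.05, 8 of the 21 were higher and 1 was lower, beside 13.7% and 5.78% of all genes. The transcription factor gene Sp5, at 7.75 to 8.15 in the controls and 8.35 to 8.60 in the knockdown arrays, rose by 0.49 (SE 0.095; limma adjusted p = 0.0207), and the receptor gene Tnfrsf19 from 8.30 to 8.73 (0.44, SE 0.081; adjusted p = 0.0172). Myc, the growth-promoting transcription factor gene, read 10.85, 10.92, 10.81 and 10.87 in the controls and 10.70, 10.51, 10.51 and 10.57 in the knockdown arrays, in array order. It fell by 0.29 (SE 0.057; adjusted p = 0.0221), opposite to the other 2. The call of Sp5 was lost without shMKRN1 2 or 4 (adjusted p up to 0.0679), that of Tnfrsf19 without shMKRN1 2 or 6 (up to 0.0611), and that of Myc without shGFP 1, shGFP 3, shMKRN1 4 or shMKRN1 6 (up to 0.0832). Axin2, a feedback inhibitor often used to read WNT activity and counted in both lists, overlapped between groups, at 8.22 to 8.47 in shGFP and 8.43 to 8.66 in shMKRN1 (adjusted p = 0.258). Cd44, Wnt3, Nkd1, Ephb3 and Lef1 had higher means in shMKRN1 and did not pass (limma adjusted p from 0.0502 for Cd44 to 0.0862 for Lef1). Without 1 array the list held between 1 and 5 called genes. Over all 17 alternatives it held between 0, with every probe set tested, and 8, among genes above the silent limit. It held 7 with each array centred on its median, with array weights or with a trended robust variance. Above the silent limit 1400 of 14005 genes were called. The fits with 7 called 1000, 2757 and 1549 of 19937 genes, in that order.

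**Figure D3:**
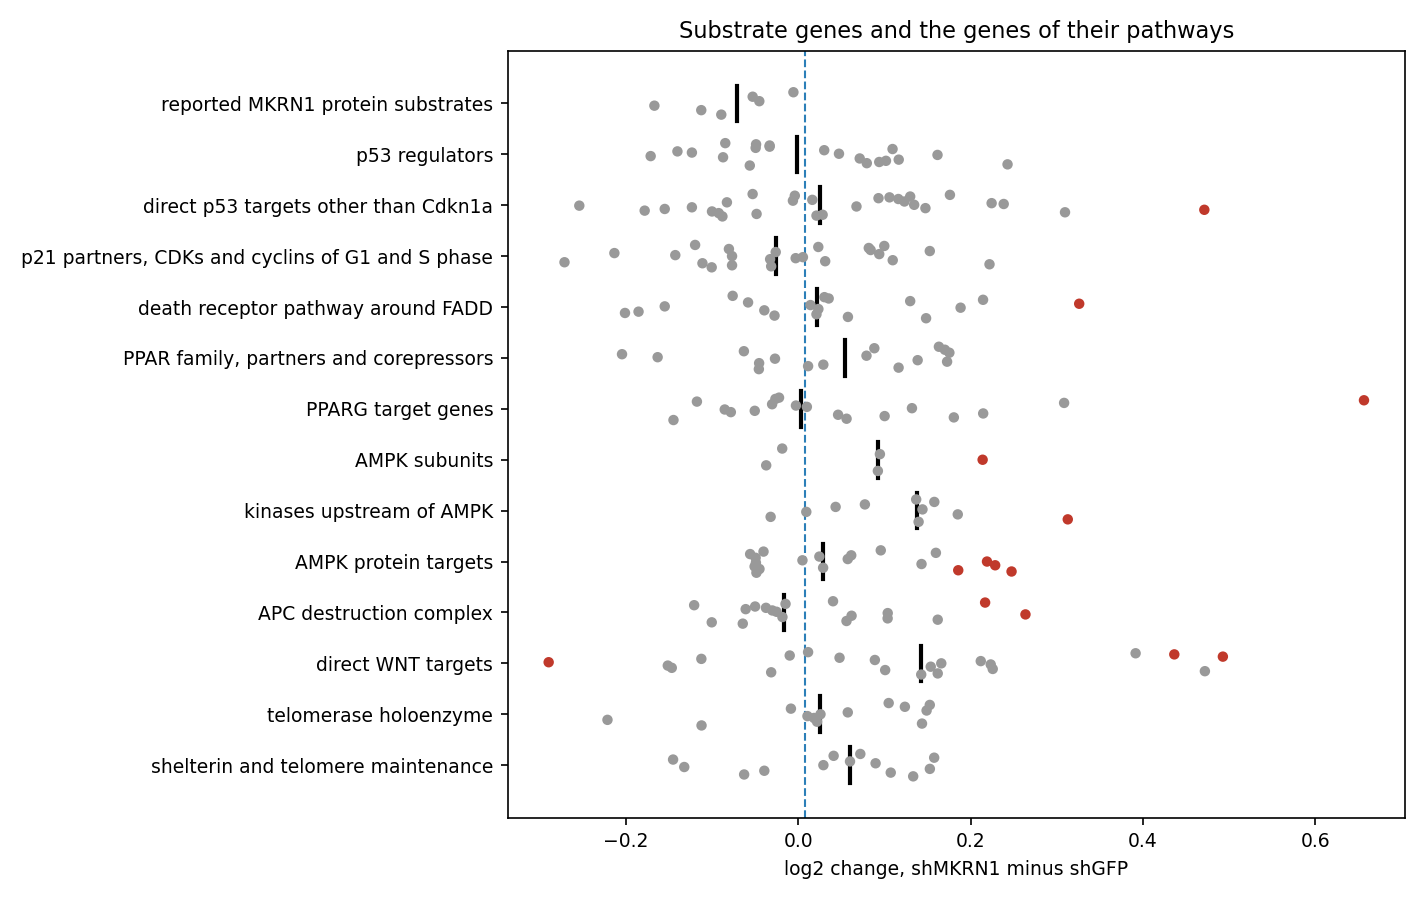
Log2 change, shMKRN1 minus shGFP (horizontal axis), of each measured gene in the list of 6 substrate genes and in 13 pathway lists. Points are genes, red where limma's adjusted p was under 0.05, black bars are list medians and the dashed line is the median of all genes, 0.0077. The substrate genes lie between -0.17 and -0.0056 with no red point, and the red points of their pathways lie to the right except Myc at -0.29.

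TERT adds telomere repeats with the RNA template TERC and keeps stem cell telomeres long. Tert (Entrez gene 21752) read 7.90, 7.88, 7.92 and 7.82 on shGFP 1, 3, 5 and 7, and 7.84, 7.84, 7.97 and 7.85 on shMKRN1 2, 4, 6 and 8. The groups lay over each other, with the highest value of all 8 on shMKRN1 6 and the lowest on shGFP 7. Its means of 7.88 ± 0.040 and 7.88 ± 0.064 (SD, n = 4 each; exact permutation p = 0.971) gave a change of -0.0056 (SE 0.052; limma adjusted p = 0.973). The interval ran from 92.0% to 108% of the control level.

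No gene among 13 measured partners of telomerase passed the test, and 4 were higher and 1 was lower at an unadjusted p under 0.05. The template RNA gene Terc read 12.78, 12.79, 12.80 and 12.78 in the controls and 12.97, 13.01, 12.90 and 12.88 in the knockdown arrays, in array order. Its groups did not overlap, and it did not pass (0.15, SE 0.049; limma adjusted p = 0.113). Naf1, an assembly factor of the telomerase RNA, had a difference of -0.22 (adjusted p = 0.115), and the helicase gene Ruvbl1 one of 0.15 (0.184). The list's median change was 0.026. Quantile normalization, a trended robust variance and the restriction to genes above the median level each gave 2 called genes, and array weights gave 3. Over all genes these fits called 1096 of 19937, 1549 of 19937, 1595 of 9968 and 2757 of 19937, in that order. Shelterin and other telomere maintenance genes also held no called gene among 13, with 3 higher and 1 lower at an unadjusted p under 0.05 and a median change of 0.060. The smallest adjusted p was 0.185, for the shelterin gene Acd (0.13), followed by Ctc1 of the CST complex (0.11, 0.229) and the telomere-binding protein gene Terf2 (0.16, 0.234). With array weights 2 genes of this list were called, beside 2757 of 19937 genes.

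Across the substrate genes the control arrays had their lowest value on the same array, whereas the knockdown arrays did not. Array shGFP 7 gave the lowest control value for all 6 of them, and for 32.0% of all genes. Array shMKRN1 8 gave the lowest knockdown value for 3 of the 6 (Fadd, Prkaa1 and Prkaa2), and for 34.3% of all genes. Both arrays also stood apart on the first principal component. With shGFP 7 left out, the differences of the 6 ran from -0.025 for Tert to -0.20 for Pparg and their median was -0.099. With shGFP 7 and shMKRN1 8 both left out the median was -0.086, and the smallest adjusted p of the 6 was 0.156.

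**Figure D4:**
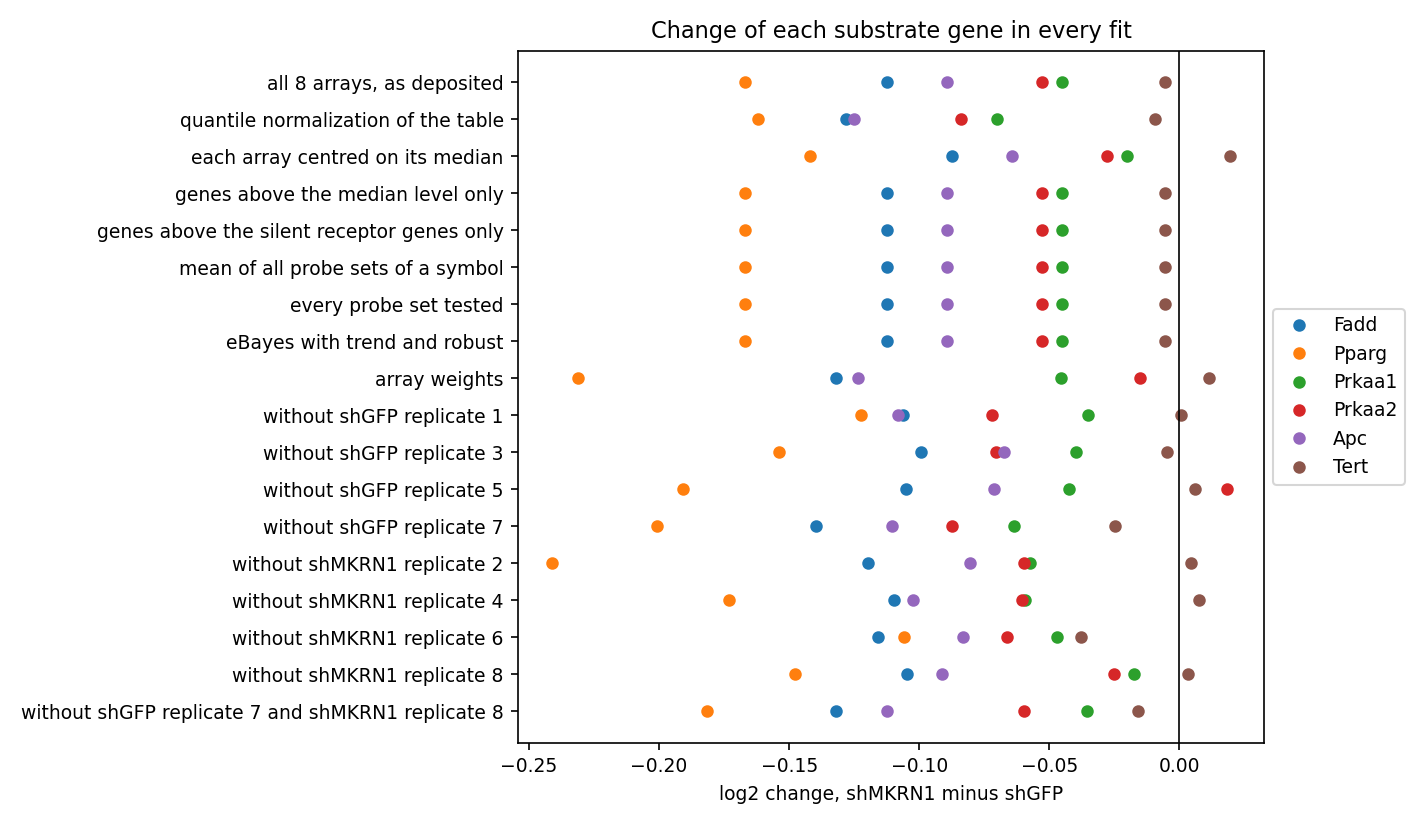
Log2 change, shMKRN1 minus shGFP (horizontal axis), of each of the 6 substrate genes (colours) in the fit of all 8 arrays and in 17 other fits (vertical axis). Points are limma estimates, which the filters, the probe set rules and the trended robust variance could not change. Pparg, Fadd, Apc and Prkaa1 stay below 0 in every fit shown, Tert lies on either side of 0, and Prkaa2 moves to 0.018 without shGFP replicate 5.

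The profile of each substrate over the 8 arrays was set beside the other genes that lay above the median level of all genes and spanned at least 0.3 log2 units. The highest Pearson correlations are a description over arrays that share group and array effects, picked as the top of 4516 or 4517 genes compared. Fadd was closest to Lifr, the LIF receptor gene (r = 0.977), and Armh3 (0.975). Prkaa1 was closest to Pcx, for pyruvate carboxylase (0.987), and Ints6, for an Integrator subunit (0.981), and Prkaa2 to the DNA damage kinase gene Atm (0.976) and the chloride exchanger gene Clcn3 (0.969). Pparg was closest to Syde1 and Tagln (0.948 each), Tagln being a gene of contractile cells. For Apc they were Xylt1 (0.941) and Uqcrb (0.903). Tert had the least close profiles, Anp32-ps (0.891) and Zfp946 (0.795).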

How the data were processed

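Total RNA of 8 samples was hybridised to Affymetrix gene arrays, 4 per hairpin, and samples were grouped by the hairpin in their titles. The authors deposited log2 values of 34760 probe sets, and the submitters' processing notes name RMA without a version. This method removes background and brings arrays to a common distribution, which hides a shift shared by most genes and shrinks changes of dim transcripts. The number of arrays limits the precision. Names came from the platform annotation: 21640 probe sets had 1 symbol, and the one with the highest mean was kept for each of 19937 genes. Differences were fitted with limma 3.58.1 in R 4.3.3 (lmFit, eBayes, two-sided, Benjamini-Hochberg over 19937 genes, threshold 0.05, no filter or covariate), a script tested on simulated data. Each substrate gene also had a two-sided exact permutation test (70 assignments of arrays to groups).

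The 8 substrate genes, the 14 pathway lists and the marker lists were chosen with earlier results of these data known. Named were the substrate genes, Mkrn1, every pathway gene past the test or else 3 of a list with the smallest p, and, for each substrate, the 2 genes with the closest profile. Angptl4, Fabp4, Cd36, Adipoq, Prkab1, Prkag2, Fnip2, Flcn, Ctnnb1, Axin2, Cd44, Wnt3, Nkd1, Ephb3, Lef1 and the named markers fall outside this rule and were chosen after their values were seen. Alternatives covered 2 scalings, 2 filters, 2 probe set rules, 2 variance settings and each array left out. Leaving out shGFP 7 and shMKRN1 8 together was added after seeing the data.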

Additional observations from a re-analysis of the deposited data

Results flagged for a closer look

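In 3 of the 14 groups of 4 arrays formed by Mkrn1 and the 6 substrate genes, 1 array stood apart from the other 3, by a gap above Dixon's 95% critical value. Chance gives such a gap in about 1 of 20 groups. Prkaa2 had 2 of them, a high value on shGFP 5 (9.14) and a low value on shMKRN1 8 (8.79). Tert had a high value on shMKRN1 6 (7.97).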

How the results depend on the processing

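None of the 6 substrate genes passed the threshold in any of 17 alternatives. The closest was Fadd, with array weights (limma adjusted p = 0.0507) and among genes above the median level (0.0882). Pparg and Apc came closest with array weights (0.0941 and 0.0946). Of 102 substrate estimates, 94 kept their direction. These include the estimates of the 2 filters, the 2 probe set rules and the trended robust variance. With 1 probe set per substrate, those fits could change only the errors and p-values, so their kept directions were fixed in advance. The 8 that reversed were of Tert and Prkaa2. Tert was 0.019 with each array centred on its median, 0.011 with array weights and between -0.038 and 0.0074 with each array left out in turn, and Prkaa2 lay between -0.087 and 0.018 with each array left out. The substrate median stayed within 0.038, its SD over arrays, of -0.071. The 896 genes called in all became 1595 among genes above the median level, 1400 among those above the silent receptor genes, 378 with every probe set tested, 1549 with a trended robust variance, 2757 with array weights and between 309 (without shMKRN1 6) and 852 (without shGFP 7) with each array left out. Leaving out shGFP 1 gave 505, shGFP 3 gave 324, shMKRN1 2 gave 353, shMKRN1 4 gave 387, and 917 were called without both shGFP 7 and shMKRN1 8. Of the pathway lists only the PPARG targets held a called gene (1) with every probe set tested. The cause of these differences in the number of called genes was not tested. The array numbers alternate between the groups, but the labels state no pairing, so no block was fitted. A fit that pairs neighbouring numbers, such as shGFP 1 with shMKRN1 2, was not run. How the errors, p-values and calls would change under such a pairing was not tested. Changes smaller than the intervals given for each gene cannot be seen with 4 arrays per group.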
